A study of Mus musculus with 24 samples.

Results

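The genes described here encode the machinery that copies DNA in S phase. 48 genes were listed by their known role in replication. 40 of them had a probe with a detection p under 0.05 on at least 4 of 24 arrays, out of 8820 genes measured in all, and 1 probe, that with the highest mean, stood for each gene. 37 of the 40 were detected on all 24 arrays, Ccne1 on 20, Prim1 on 8 and Orc2 on 6. The probes of Orc1, Gmnn, Pola1 and Pole2 were detected on 0 arrays, and no probe carried the symbols Gins1, Gins2, Rfc3 or E2f8, so that these 8 genes were not analysed.

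The cells were thymocytes of Il7r+/+ mice on the C57BL/6J strain, which carry both functional copies of the IL7 receptor gene, taken in 4 independent sorts; the age of the mice and whether animals were pooled are not given in the labels used here. All cells were sorted as negative for lineage markers and KIT, and they were divided by CD25, by the transferrin receptor CD71 and by size (forward scatter, FSC). DN3a cells (CD25+, CD71 low, FSC low) are small cells before beta-selection, the checkpoint that a thymocyte passes once its rearranged TCR beta chain functions. DN3b cells (CD25+, CD71 high, FSC high) and DN4 cells (CD25-, CD71 high, FSC high) are large cells after it. Each sorted subset was rested for 1 h and then cultured for 3 h, either untreated or with IL7 at 10 ng/ml, a cytokine of the thymus that signals through JAK kinases and STAT5. This gave 6 groups of 4 cultures on Illumina Ref8v2 beadchips, and the number of arrays limits the precision.

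Replication starts at origins, where the origin recognition complex, CDC6 and CDT1 load the ring-shaped MCM2-7 helicase in G1, a step called licensing. In S phase CDC45 and the GINS complex join the ring to form the active helicase, primase and DNA polymerase alpha start each strand, and polymerases delta and epsilon extend it on the sliding clamp PCNA. Many genes of this machinery are transcribed through E2F factors, which the retinoblastoma protein restrains until cyclin-dependent kinases release them. Thymocytes that pass beta-selection are known to divide rapidly.

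All 3 subsets had high T lineage transcripts such as Cd3e and Cd3g, on 24 of 24 arrays each. Ptcra of the same list was dimmer and was detected on 23 arrays. Its means were 7.58, 6.31 and 6.15 in untreated DN3a, DN3b and DN4 cells, and those of Rag1 were 10.71, 9.97 and 10.68. All 7 measured T lineage markers of 9 listed were lower in untreated DN3b than in DN3a cells, and their summed signal ranged from 58067 to 70581 in DN3a, from 33212 to 34610 in DN3b and from 30258 to 35588 in DN4 cells. Of the gate genes, Il2ra, which encodes CD25, had mean log2 signals of 9.17, 8.01 and 5.14 in untreated DN3a, DN3b and DN4 cells, and Tfrc, which encodes CD71, of 11.15, 11.95 and 11.20. Il2ra fell with the loss of CD25, whereas Tfrc was higher in DN3b than in DN3a cells and did not pass the test between DN4 cells, gated as CD71 high, and DN3a cells (log2 0.05 ± 0.10 SE, limma adjusted p = 0.72). Transcripts of other blood cells were present. Hba-a1, an alpha globin gene, was detected on the 12 arrays of sorts 1 and 3 and on 0 of the others. Of the same list, Epor was detected on 12 arrays and Klf1 on 4, while Alas2 and Ermap were detected on 0 arrays. The summed linear signal of the 6 measured granulocyte and myeloid genes of 8 listed ranged from 241 to 1136 in untreated DN3a, from 148 to 390 in DN3b and from 146 to 8257 in DN4 cells. S100a8, a neutrophil gene of that list, was highest in sorts 2 and 3 in each untreated subset. The 3 measured erythroid genes of 7 summed to between 86.3 and 1470 in DN3a, 91.0 and 880 in DN3b and 80.8 and 907 in DN4 cells. Of 3 later thymocyte genes, Cd4 and Cd8a were on 0 arrays and Cd8b1 rose from a mean of 9.35 in DN3a to 12.06 in DN3b and 13.86 in DN4 cells. For B cell, dendritic, NK and thymic stroma lists, 1 of 4, 2 of 4, 1 of 3 and 1 of 4 genes were measured. The B cell gene Ms4a1 was detected on 9 arrays and the stroma gene Krt8 on 19, while Cd79a, Pax5, Ncr1 and Krt5 were on 0 arrays. The dendritic list sum ranged from 137 to 196 in untreated DN3a, from 73.7 to 105 in DN3b and from 70.9 to 91.5 in DN4 cells, and its gene Irf8 fell by 1.22 on the log2 scale from DN3a to DN3b cells (limma adjusted p = 0.00053). Nkg7, the measured NK list gene, fell from a mean of 10.93 in DN3a to 7.98 in DN3b and 6.10 in DN4 cells. The part of these transcripts in the results below was not tested.

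In untreated cells, the replication machinery stood far higher in DN3b than in DN3a cells. 39 of the 40 measured genes were higher and 1, the primase subunit gene Prim2, was lower, by limma at an adjusted p under 0.05. Orc2 and Prim1, counted among the rises, were above background on 0 of 4 untreated DN3a arrays each and entered the fit through other groups; of the 38 genes detected on at least 12 arrays, 37 were higher and 1 lower. Of all genes tested, 24.9% were higher and 31% lower in the same comparison. The median difference of the 40 genes was 1.38 on the log2 scale, or 2.61-fold, against -0.03 for all genes, and 32 of the 40 were at least 2-fold higher, as were 6.39% of all genes. For 38 of the 40, every DN3b culture lay above every DN3a culture, which held for 19.7% of all genes. In bulk RNA, a larger share of cells in S phase and more RNA per cell cannot be told apart. The subsets were gated on cell size and CD71 as well as on stage, so that size and stage cannot be told apart either.

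The mean log2 signal of the 40 genes on each array shows the same step. It was 8.96, 8.84, 8.64 and 8.88 in untreated DN3a cells of sorts 1 to 4, 10.37, 10.30, 10.30 and 10.26 in DN3b cells and 10.37, 10.39, 10.28 and 10.34 in DN4 cells. DN3b and DN4 cultures overlapped, and both lay above all DN3a cultures. Within each sort the mean difference between DN3b and DN3a was 1.41, 1.46, 1.65 and 1.38, with 38 or 39 of 40 genes higher in every sort. With sorts 2 and 4 only, and with sorts 1 and 4 only, 37 genes were higher and 0 lower, with medians of 1.31 and 1.31. Of all genes, 19.2% and 17.9% were higher in these settings.

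**Figure D1:**
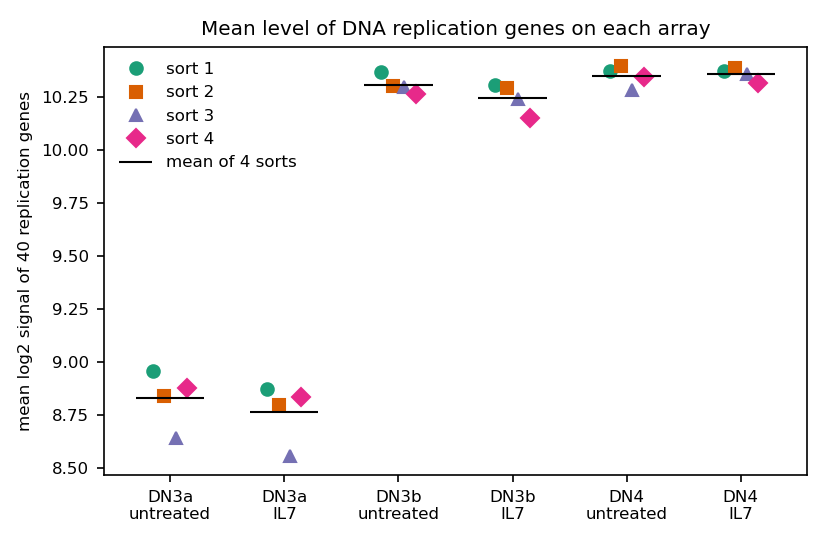
Mean log2 signal of the 40 measured DNA replication genes on each of the 24 arrays, by subset and treatment; symbols are the 4 sorts and lines the mean of 4. The DN3a arrays lie between 8.56 and 8.96 and the DN3b and DN4 arrays between 10.15 and 10.39.

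Origin licensing genes opened the list. All 11 measured genes of this role were higher in DN3b cells, with a median log2 difference of 1.47. Cdc6, which encodes the loader of the MCM ring, was at log2 signals of 7.24, 6.87, 6.24 and 6.92 in untreated DN3a cells of sorts 1 to 4, at 9.28, 9.34, 8.96 and 9.17 in DN3b and at 9.27, 9.61, 9.13 and 9.28 in DN4 cells. It was 5.15-fold higher in DN3b than in DN3a cells (log2 difference 2.37 ± 0.13 SE, n = 4 sorts, limma adjusted p = 2.4e-07). A dimmer second probe of Cdc6 gave 0.82 ± 0.15 SE (limma adjusted p = 0.0011). Mcm10 was listed under this role, although its product helps to activate the helicase once it is loaded. It was at 8.63, 8.16, 7.46 and 8.50 in DN3a, at 11.45, 11.32, 11.35 and 11.39 in DN3b and at 11.53, 11.50, 11.46 and 11.42 in DN4 cells. Its 9.13-fold difference (log2 3.19 ± 0.17 SE, limma adjusted p = 2.3e-07) was the second largest of the 40 genes and ranked 35 among 8820 genes tested, and sort 3 was lowest in DN3a cells. Cdt1, the partner of CDC6 in loading, was 2.77-fold and Orc6, an origin recognition subunit, 2.57-fold higher.

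The 6 genes of the MCM2-7 ring differed in the size of the step although their products act in one complex. Mcm2 was at 10.06, 9.67, 10.02 and 10.04 in untreated DN3a cells of sorts 1 to 4, at 11.12, 10.81, 11.28 and 10.98 in DN3b and at 10.76, 10.71, 11.16 and 10.96 in DN4 cells. Mcm3 was at 7.86, 8.10, 7.91 and 8.19 in DN3a, at 9.94, 10.06, 10.01 and 10.00 in DN3b and at 9.90, 9.96, 9.85 and 9.81 in DN4 cells. Mcm4 was at 12.40, 12.15, 12.20 and 12.53, at 13.27, 13.13, 13.20 and 13.22 and at 13.22, 13.06, 13.09 and 13.10 in the same order. For each of these genes all DN3b and DN4 cultures lay above all DN3a cultures. Mcm5 was at 11.24, 11.03, 11.04 and 11.29 in DN3a, at 13.09, 12.83, 13.04 and 13.00 in DN3b and at 13.04, 13.17, 12.96 and 13.22 in DN4 cells. Mcm6 was at 11.07, 10.87, 10.77 and 11.06, at 12.05, 12.12, 11.78 and 11.84 and at 12.11, 12.08, 11.58 and 12.02. Mcm7 was at 7.94, 8.36, 8.31 and 8.62, at 9.91, 10.14, 10.50 and 10.04 and at 10.06, 10.60, 10.50 and 10.50. The groups of DN3a cultures did not overlap the others for these genes either. The log2 differences between DN3b and DN3a were 1.99 ± 0.08 SE for Mcm3, 1.84 ± 0.09 for Mcm5 and 1.84 ± 0.12 for Mcm7, against 1.10 ± 0.09 for Mcm2, 1.01 ± 0.09 for Mcm6 and 0.89 ± 0.08 for Mcm4 (n = 4 sorts, limma adjusted p from 5.7e-08 to 8.7e-06). The differences between these genes were not tested, since probes can differ in response. Other probes gave 0.86 and 1.17 for Mcm4 and 1.11, 0.84 and 0.43 for Mcm6, the last not past the threshold (limma adjusted p = 0.089).

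The promoters of MCM ring genes are shown because these genes were all higher in DN3b cells and E2F factors are known regulators of replication genes. No window was found for Mcm4, so that it is not shown. RefSeq windows of build GRCm38.p6 running from 250 bases before to 50 bases after the gene start were searched on both strands for the words TTCCCGC and TTGGCGC. Each window below is printed 5′ to 3′ on the strand of the gene, with these words or their reverse complements in capitals. Of Mcm7, which has more than 1 window, that with more words is shown.
Mcm2 (chr6:88898731-88899030, minus strand): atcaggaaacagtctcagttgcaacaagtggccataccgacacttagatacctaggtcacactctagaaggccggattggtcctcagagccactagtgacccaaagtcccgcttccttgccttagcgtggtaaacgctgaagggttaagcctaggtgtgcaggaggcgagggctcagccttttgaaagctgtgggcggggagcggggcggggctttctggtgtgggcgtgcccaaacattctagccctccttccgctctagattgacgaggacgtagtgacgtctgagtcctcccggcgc
Mcm3 (chr1:20820263-20820562, minus strand): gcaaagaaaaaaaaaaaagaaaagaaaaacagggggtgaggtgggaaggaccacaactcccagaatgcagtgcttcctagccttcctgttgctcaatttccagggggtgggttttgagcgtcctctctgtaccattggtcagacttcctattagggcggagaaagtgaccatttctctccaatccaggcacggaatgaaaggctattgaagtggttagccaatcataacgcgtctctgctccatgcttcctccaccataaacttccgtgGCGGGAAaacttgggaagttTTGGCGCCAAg
Mcm5 (chr8:75109259-75109558, plus strand): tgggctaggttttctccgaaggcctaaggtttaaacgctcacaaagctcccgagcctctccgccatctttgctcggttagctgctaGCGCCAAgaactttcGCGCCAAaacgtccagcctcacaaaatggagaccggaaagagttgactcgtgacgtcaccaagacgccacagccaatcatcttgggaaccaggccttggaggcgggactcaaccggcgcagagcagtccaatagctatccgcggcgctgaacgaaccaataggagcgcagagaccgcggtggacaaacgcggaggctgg
Mcm6 (chr1:128359656-128359955, minus strand): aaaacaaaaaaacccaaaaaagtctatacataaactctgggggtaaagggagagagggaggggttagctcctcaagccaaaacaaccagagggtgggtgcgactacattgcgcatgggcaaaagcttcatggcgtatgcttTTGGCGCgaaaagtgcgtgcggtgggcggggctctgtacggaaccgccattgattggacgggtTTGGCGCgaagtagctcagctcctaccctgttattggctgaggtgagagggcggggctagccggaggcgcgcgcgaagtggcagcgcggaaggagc
Mcm7 (chr5:138171834-138172133, minus strand): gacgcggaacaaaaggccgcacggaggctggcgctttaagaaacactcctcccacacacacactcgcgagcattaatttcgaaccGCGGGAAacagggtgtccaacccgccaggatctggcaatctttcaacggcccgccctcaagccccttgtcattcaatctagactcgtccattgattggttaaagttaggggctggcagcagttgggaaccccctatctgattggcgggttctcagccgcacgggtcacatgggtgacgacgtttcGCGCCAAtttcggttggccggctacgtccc
Mcm3 held 3 words, of which those starting at bases 40 and 43 after the start overlap, and 1 at base 20. In Mcm5 the words began at bases -164 and -149, in Mcm6 at -109 and -46, and in Mcm7 at -165 and 21. The Mcm2 window held 0 such words. Windows were found for 32 of the 40 genes, and 19 of their 39 windows, or 48.7%, held an E2F word, against 11.4% of the 9301 windows of all tested genes and 6.81% of all 32851 windows. CCAAT was in 56.4% of the 39 windows and in 38.4% of those of tested genes, and CACGTG in 15.4% and 9.85%. In 2 of the 39 windows an E2F word and a CCAAT overlapped. Among the 32 genes, the median difference between DN3b and DN3a was 1.44 for the 18 with an E2F word and 1.35 for the 14 without, and the largest, that of Mcm10, was among those without.

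Genes of helicase activation and of the sliding clamp rose together. All 3 measured genes of helicase activation and all 5 of the clamp and its loader were higher in DN3b cells. Cdc45, an essential part of the active helicase, was at 7.88, 7.38, 7.11 and 7.41 in untreated DN3a cells of sorts 1 to 4, at 10.26, 10.06, 10.39 and 10.37 in DN3b and at 10.19, 10.38, 10.48 and 10.30 in DN4 cells, and was 7.08-fold higher in DN3b than in DN3a cells (log2 2.82 ± 0.15 SE, n = 4 sorts, limma adjusted p = 2.1e-07). Every DN3b culture of Cdc45 was above every DN3a culture by more than 2 on the log2 scale. The log2 differences of the GINS genes were 1.33 ± 0.08 SE for Gins3 and 0.70 ± 0.08 SE for Gins4. Pcna was at 5.84, 6.17, 5.67 and 6.12 in DN3a, at 7.86, 7.69, 7.72 and 7.69 in DN3b and at 8.21, 7.85, 7.65 and 7.35 in DN4 cells, 3.45-fold higher in DN3b (log2 1.79 ± 0.16 SE, limma adjusted p = 5.7e-06). Of the clamp loader, Rfc4 was 3.83-fold higher (1.94 ± 0.14 SE, and 0.90 ± 0.15 at a dimmer probe), whereas Rfc2, at 0.46 ± 0.09 SE, had the smallest difference of this role.

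The polymerase and primase genes were the only role with a fall. 6 of its 7 measured genes were higher in DN3b cells and Prim2 was lower. Pole, the catalytic subunit of polymerase epsilon, was at 6.85, 6.51, 5.78 and 6.23 in untreated DN3a cells of sorts 1 to 4, at 8.71, 8.51, 8.11 and 8.31 in DN3b and at 8.71, 8.51, 7.94 and 8.47 in DN4 cells, and was 4.2-fold higher in DN3b cells (log2 2.07 ± 0.09 SE, limma adjusted p = 8.4e-08). Pold1, the catalytic subunit of polymerase delta, was at 10.42, 10.42, 10.23 and 10.25 in DN3a, at 11.60, 11.71, 11.56 and 11.60 in DN3b and at 11.67, 11.72, 11.32 and 11.57 in DN4 cells, 2.44-fold higher in DN3b. Prim2, the large primase subunit, was at 11.10, 10.63, 10.90 and 10.57 in DN3a, at 10.51, 10.33, 10.38 and 10.41 in DN3b and at 10.16, 10.01, 10.49 and 10.16 in DN4 cells. Its DN3a cultures were the higher ones, without overlap with either later subset. It fell by 0.39 ± 0.11 SE on the log2 scale from DN3a to DN3b (n = 4 sorts, limma adjusted p = 0.0104), lower in 4 of 4 sorts, and a second probe gave -0.47 ± 0.10 SE (limma adjusted p = 0.0028). The fall was not called with sorts 2 and 4 only (-0.23, limma adjusted p = 0.16) or with sorts 1 and 4 only (-0.37, limma adjusted p = 0.12). The small primase subunit gene Prim1 was not above background in DN3a cells and was detected on 1 of 4 DN3b arrays, at means of 4.57 and 5.06 (limma adjusted p = 0.014), which gives no fold, and Prim1 lost its call without sort 1 or without sort 2 (limma adjusted p = 0.066 and 0.080).

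At the lagging strand and behind the fork, the genes were again higher in DN3b cells. Lig1, the ligase that joins Okazaki fragments, was 4.63-fold higher (log2 2.21 ± 0.12 SE, limma adjusted p = 2.9e-07), with 2.28 and 2.51 at other probes and 0.22 ± 0.13 SE at one more probe, which did not pass (limma adjusted p = 0.18). Fen1, the flap nuclease, was 3.22-fold higher. The single-strand binding genes Rpa1, Rpa2 and Rpa3 differed by 0.68, 1.42 and 1.08 on the log2 scale, and Chaf1a and Chaf1b, which deposit histones on new DNA, by 1.68 and 1.19. Timeless and Tipin, which protect the fork as a complex, were close in size at 1.77 ± 0.10 and 1.71 ± 0.10 SE, with 0.91 and 1.03 at dimmer probes.

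Pif1, which encodes a helicase that unwinds structured DNA, had the largest step of the 40 genes. It was at 6.75, 6.27, 6.15 and 6.14 in untreated DN3a cells of sorts 1 to 4, at 10.48, 10.37, 10.36 and 10.37 in DN3b and at 10.41, 10.55, 10.13 and 10.53 in DN4 cells. The difference between DN3b and DN3a was 16.8-fold (log2 4.07 ± 0.12 SE, n = 4 sorts, limma adjusted p = 2.1e-08) and ranked 4 among 8820 genes tested. With the authors' deposited log2 values it was 3.13 on the log2 scale. Those values also gave smaller differences for dim probes, at 1.76 for Cdc6, 1.36 for Pole, 1.22 for Ccne2, 1.03 for Pcna, 0.79 for Gins3 and 0.57 for Ccne1, all past the threshold.

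The regulators of S phase entry were higher as well, 4 of 4 measured. The cyclin E genes encode the partners of CDK2 at the start of S phase. Ccne1 was at 4.81, 5.25, 5.05 and 5.74 in untreated DN3a cells of sorts 1 to 4, with 2 of 4 arrays above background, at 6.64, 6.61, 6.50 and 6.44 in DN3b and at 6.75, 6.88, 5.72 and 7.16 in DN4 cells. Ccne2 was at 5.89, 6.09, 5.46 and 5.76 in DN3a, at 7.73, 7.92, 8.26 and 7.75 in DN3b and at 7.84, 8.06, 8.45 and 7.98 in DN4 cells. Ccne2 was 4.34-fold higher in DN3b than in DN3a cells (log2 2.12 ± 0.17 SE, limma adjusted p = 2.6e-06) and Ccne1 2.53-fold (1.34 ± 0.22 SE, limma adjusted p = 0.00051). DN4 cells of sort 3 and DN3a cells of sort 4 overlapped for Ccne1. The activator E2F gene E2f1 was at 8.71, 8.60, 8.38 and 8.63 in DN3a, at 9.90, 9.57, 9.95 and 9.69 in DN3b and at 9.76, 9.81, 10.09 and 9.83 in DN4 cells. E2f2 was at 11.02, 10.80, 10.74 and 10.84 in DN3a, at 12.39, 12.16, 12.41 and 12.27 in DN3b and at 12.37, 12.23, 12.52 and 12.17 in DN4 cells. Both lay without overlap above DN3a cells in both later subsets, by 2.3-fold for E2f1 and 2.74-fold for E2f2 in DN3b cells.

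The smallest rise was that of Orc2, an origin recognition subunit. Its probe was above background on 0 of 4 DN3a and 3 of 4 DN3b arrays, with mean log2 signals of 4.82 and 5.16 (limma adjusted p = 0.025), too dim to give a fold. Orc2 was the 1 gene whose DN3a and DN3b cultures overlapped, and it was not called without sort 1, without sort 3 or without sort 4 (limma adjusted p = 0.069, 0.10 and 0.13).

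**Figure D2:**
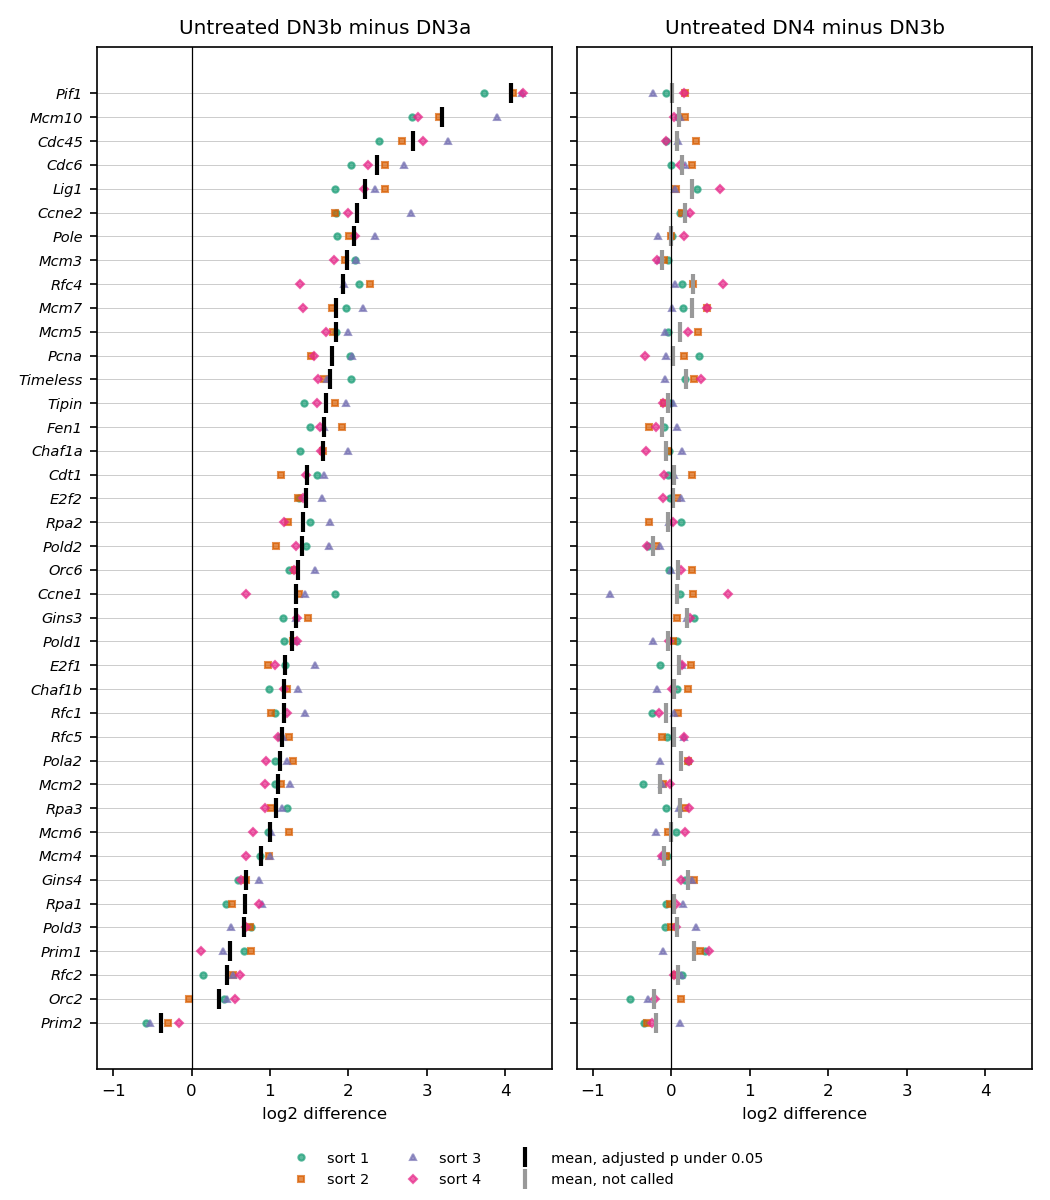
Log2 differences of the 40 DNA replication genes between untreated subsets, DN3b minus DN3a on the left and DN4 minus DN3b on the right; coloured symbols are the 4 sorts and upright ticks their mean, black where limma's adjusted p is under 0.05. On the left 39 ticks lie above 0 and Prim2 below it, and on the right all ticks lie between -0.24 and 0.29.

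From DN3b to DN4, when CD25 is lost, no difference passed the test. 0 of the 40 genes were called in either direction by limma, with a lowest adjusted p of 0.21. Over all genes 1.45% were called higher and 2.57% lower. At an unadjusted limma p under 0.05 there were 3 of the 40 (Mcm7, Gins3 and Gins4, all higher in DN4 cells), against 17.6% of all genes. The differences ran from -0.24 for Pold2, a polymerase delta subunit, to 0.29 for Prim1, with a median of 0.04. The 95% interval lay within 0.5 on the log2 scale of 0 for 34 of the 40 genes and within 1 for all 40, and the bounds reached -0.50 for Pold2 and 0.61 for Prim1. For 0 of the genes did all DN4 cultures lie above all DN3b cultures, against 2.87% of all genes. The summed granulocyte signal was up to 8257 in these DN4 cultures and 390 in DN3b cultures, and its part was not tested. The count was also 0 with sorts 1 and 4 only, where 12 of all 8820 genes were higher and 22 lower. With sorts 2 and 4 only it was 0 too, where 15 were higher and 51 lower. Sort 2 had the highest S100a8 signal of these DN4 cultures, at 12.39. With so few calls over all genes, the counts cannot decide the part of the granulocyte signal.

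Against the same DN3a cultures, which both comparisons share, DN4 cells had 38 of 40 genes higher and Prim2 lower, where 26.8% of all genes were higher and 32.4% lower. The median difference was 1.43, and 37 genes lay without overlap above DN3a cells, as did 20.2% of all genes. Pif1 (4.08 ± 0.12 SE), Mcm10 (3.29 ± 0.17), Cdc45 (2.89 ± 0.15), Cdc6 (2.50 ± 0.13), Lig1 (2.47 ± 0.12), Ccne2 (2.29 ± 0.17) and Rfc4 (2.22 ± 0.14) had the largest log2 differences, and Prim2 fell by 0.60 ± 0.11 SE (n = 4 sorts, limma adjusted p = 0.0008). Mcm7 (2.11), Pole (2.07), Timeless (1.96), Mcm5 (1.95) and Mcm3 (1.87) followed. Prim1 was at least 1.11-fold higher, and Orc2 was below background in both groups. With sorts 2 and 4 only 38 genes were higher, and with sorts 1 and 4 only 37, and Prim2 was lower in both. Of all genes, 21.9% and 20.4% were higher in these settings.

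Replication genes outside the 40 moved in the same direction in most but not all cases. Of 29 other replication genes listed, 22 were measured, of which 15 were higher and 2 lower in untreated DN3b than in DN3a cells, with a median of 0.82, where 24.9% of all genes were higher and 31% lower with a median of -0.03. Top2a, the topoisomerase that untangles replicated DNA, was higher by 3.03 ± 0.16 SE on the log2 scale, the clamp loader gene Chtf18 by 2.46 ± 0.13 and the checkpoint adaptor gene Clspn by 2.33 ± 0.12. The small polymerase delta subunit gene Pold4 fell by 0.95 ± 0.11 SE and the origin recognition gene Orc3 by 0.54 ± 0.11 (limma adjusted p = 3.3e-05 and 0.0018). In DN4 against DN3a cells 18 were higher and 2 lower, and between DN4 and DN3b 0 were called.

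The wider set of E2F and S phase regulators held both directions. Of 15 listed, 13 were measured, of which 9 were higher and 3 lower in DN3b than in DN3a cells, with a median of 0.60 against the same all-gene shares, and the same counts held for DN4 against DN3a. The pocket protein gene Rbl1 (1.66 ± 0.10 SE) and Skp2 (1.39 ± 0.11), part of a ubiquitin ligase for cell cycle inhibitors, led the rises, and Ccna2, which encodes cyclin A, was at least 1.25-fold higher. The repressor-type E2F genes E2f4 (-0.57 ± 0.09 SE), E2f5 (-0.41 ± 0.10) and E2f6 (-0.32 ± 0.10) were the 3 that fell, and the E2f6 call was lost in 6 of 14 alternative settings. Rb1, the retinoblastoma gene, was the 1 regulator to differ between DN4 and DN3b cells (0.39 ± 0.09 SE, limma adjusted p = 0.044), a call lost in 10 of 14 alternative settings. Of 9 genes of replication-coupled chromatin, 6 were measured, with 5 higher and 1 lower in DN3b than in DN3a cells and a median of 1.27 against the same all-gene shares, the same counts in DN4 against DN3a and 0 called between DN4 and DN3b. The histone chaperone genes Asf1b (2.43 ± 0.12 SE) and Nasp (2.20 ± 0.11) and Rbbp7 (1.37 ± 0.13), a histone-binding protein, led the rises, while Asf1a, the paralog of Asf1b, fell by 0.45 ± 0.13 SE (limma adjusted p = 0.013).

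IL7 for 3 h moved few replication genes. In DN3a cells 3 of the 40 were higher and 5 lower by limma, or 7.5% and 12.5%, close to the 9.44% and 11.5% of all genes, and the median change was -0.06 against -0.03 for all genes. For 33 of the 40 genes the 95% interval of the change lay within 0.5 of 0 on the log2 scale, and for all 40 within 1. Without the block for culture pairs 3 genes were called, 1 higher and 2 lower, where 461 and 444 of all 8820 genes were. With sorts 2 and 4 only 0 were higher and 2 lower, where 325 and 291 of all 8820 genes were. With sorts 1 and 4 only 0 were higher and 1 lower, where 262 and 216 of all genes were. Other lists moved in the same cultures. With IL7 in DN3a cells the NK list gene Nkg7 rose by 0.78 ± 0.13 SE (limma adjusted p = 0.00093). Of the dendritic list, Irf8 rose by 0.66 ± 0.17 SE and Siglech fell by 0.44 ± 0.09 SE (limma adjusted p = 0.013 and 0.0039). Of the 6 measured granulocyte and myeloid genes 1 was called lower, and Lyz2 had the largest fall, from a mean of 6.85 to 5.93. Cd8b1 was lower (-0.79), 2 of the 7 measured T lineage genes were lower, and 2 gate genes, Il2ra and Tfrc, were higher. The part of these transcripts in the IL7 changes was not tested.

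Of the 5 genes that fell, 4 encode polymerase or primase subunits. The role has 7 measured genes, and its Pold2 was at 0.25, not called. Prim2 was at 11.10, 10.63, 10.90 and 10.57 in untreated and at 10.54, 9.94, 10.37 and 9.97 in IL7-treated DN3a cells of sorts 1 to 4. It fell by 0.59 ± 0.08 SE on the log2 scale (n = 4 culture pairs, limma adjusted p = 0.0002), lower in 4 of 4 pairs and without overlap, and a second probe gave -0.64 ± 0.11 SE. This was the 1 call of the 8 that held in all 14 alternative settings. Pole was at 6.85, 6.51, 5.78 and 6.23 without and at 6.19, 6.27, 5.28 and 5.97 with IL7, and fell by 0.41 ± 0.09 SE (limma adjusted p = 0.0064), and by 0.19 with the authors' deposited log2 values. Pold1 went from 10.42, 10.42, 10.23 and 10.25 to 9.87, 10.22, 10.01 and 10.07, a fall by 0.29 ± 0.08 SE (limma adjusted p = 0.023) in which sort 1 moved most. Pold3, an accessory subunit of polymerase delta, fell by 0.29 ± 0.07 SE (limma adjusted p = 0.0101), by similar amounts in the 4 pairs (-0.32, -0.27, -0.30 and -0.25). The activator gene E2f2 was at 11.02, 10.80, 10.74 and 10.84 without and at 10.49, 10.32, 10.07 and 10.27 with IL7, without overlap, and fell by 0.56 ± 0.07 SE (limma adjusted p = 9.7e-05). Other probes of E2f2 gave -0.58 ± 0.10 SE (limma adjusted p = 0.0013) and -0.27 ± 0.17 (limma adjusted p = 0.3).

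The 3 rises in DN3a cells were smaller. Chaf1b rose by 0.27 ± 0.07 SE, Fen1 by 0.22 ± 0.07 and Tipin by 0.21 ± 0.07 (limma adjusted p = 0.015, 0.034 and 0.043), each higher in 4 of 4 pairs. Leaving out sort 1, 2 or 4 ended the Chaf1b call, and leaving out any single sort ended those of Fen1 and Tipin, while a second Tipin probe gave 0.05 ± 0.18 SE. The Pold1 call ended without sort 1 (-0.20), sort 2 or sort 4, and that of Pold3 without sort 2 or sort 3, with adjusted p from 0.050 to 0.15.

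In DN3b cells 0 genes rose and 2 fell with IL7, or 5% of the 40, where 4.8% of all genes rose and 5.01% fell. E2f2 went from 12.39, 12.16, 12.41 and 12.27 to 11.96, 11.83, 12.03 and 11.61 in sorts 1 to 4, a fall by 0.45 ± 0.07 SE on the log2 scale (n = 4 culture pairs, limma adjusted p = 0.00083), and both of its other probes fell as well (-0.63 and -0.39). Pold1 went from 11.60, 11.71, 11.56 and 11.60 to 11.14, 11.42, 11.21 and 11.35 and fell by 0.34 ± 0.08 SE (limma adjusted p = 0.018). For both genes all treated cultures lay below all untreated ones. Leaving out any single sort ended the Pold1 call, with limma adjusted p from 0.065 to 0.085. With sorts 2 and 4 only 0 of the 40 were called, where 200 of all 8820 genes were higher and 148 lower. With sorts 1 and 4 only 0 were called as well, where 169 of all genes were higher and 87 lower. Nkg7 rose by 0.53 ± 0.13 SE in these cultures (limma adjusted p = 0.021). Cd8b1 was lower (-0.63), 3 of the 7 measured T lineage genes were lower, and 2 gate genes were higher. The part of these transcripts was not tested. Prim2 was at -0.24 ± 0.08 SE (limma adjusted p = 0.090), and at -0.05 at its second probe.

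In DN4 cells 0 of the 40 genes were called, against 1.86% of all genes higher and 0.578% lower. At an unadjusted limma p under 0.05 there were 6 of the 40, and 11.4% of all genes. Of the 6, Mcm3 (0.23), Mcm4 (0.18), Prim1 (0.26) and Fen1 (0.15) were above 0 and Mcm7 (-0.22) and E2f2 (-0.21) below it. The 95% interval lay within 0.5 of 0 for 38 genes and within 1 for all 40. All IL7-treated DN4 cultures lay between 10.31 and 10.38 in the mean of the 40 genes.

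**Figure D3:**
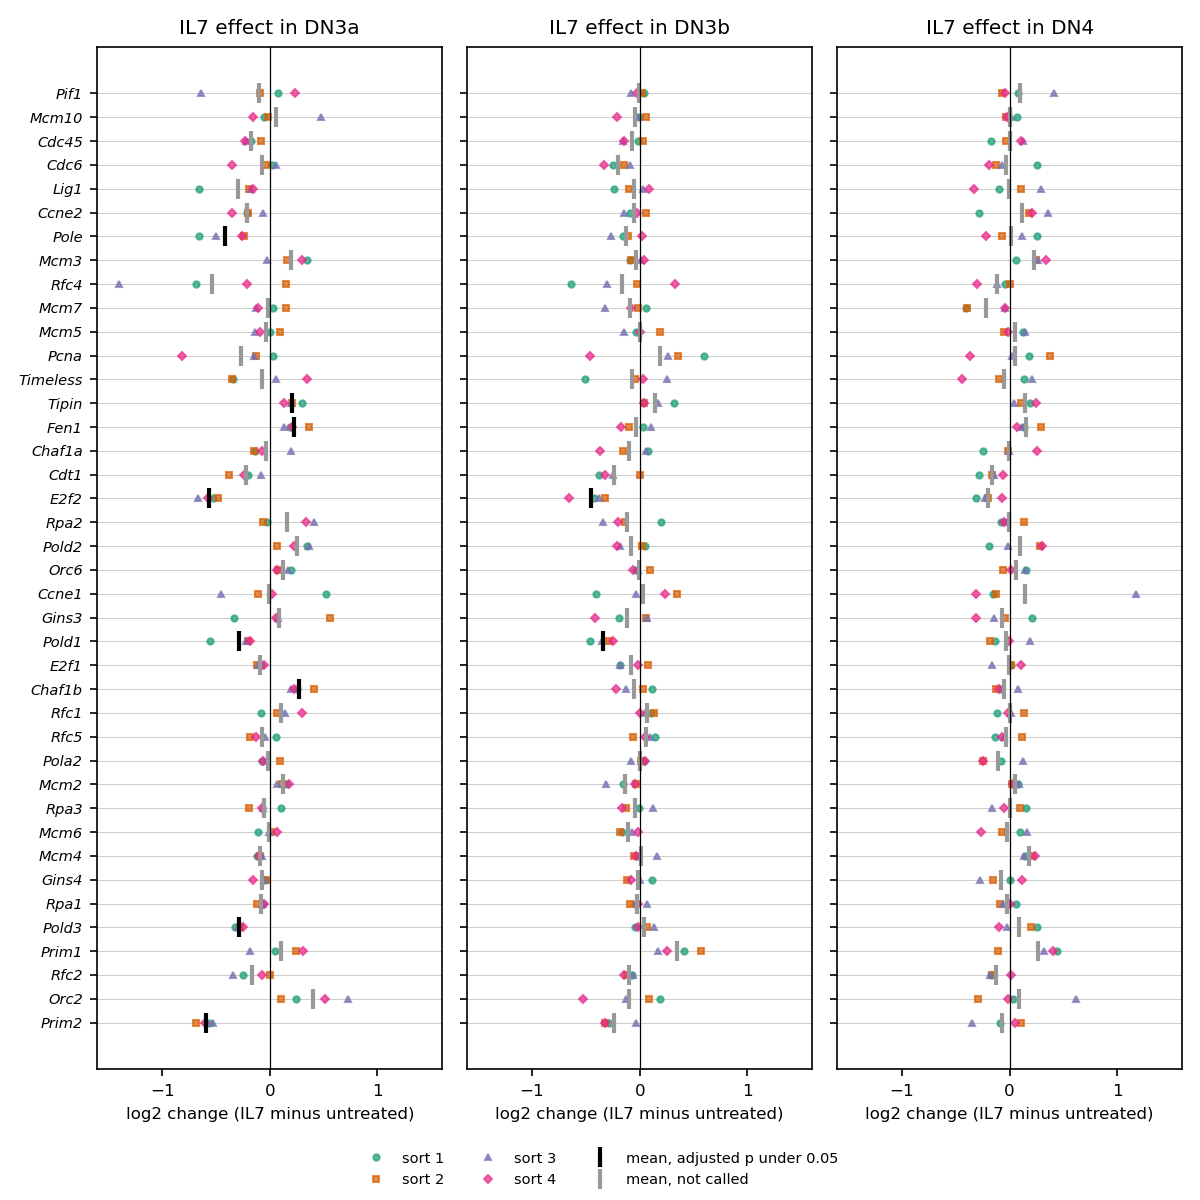
Log2 change with IL7 of the 40 DNA replication genes in DN3a, DN3b and DN4 cells, in the order of the untreated difference between DN3b and DN3a; coloured symbols are the 4 culture pairs and upright ticks their mean, black where limma's adjusted p is under 0.05. 8 genes are marked in DN3a cells, E2f2 and Pold1 in DN3b cells and 0 in DN4 cells.

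The size of the IL7 change was compared between subsets with the same fit. Between DN3b and DN3a cells 0 of the 40 changes differed, where 1.7% of all genes did. At an unadjusted limma p under 0.05 there were 8 of the 40, and 15.5% of all genes. Between DN4 and DN3b cells 0 of the 40 differed, where 0.306% of all genes did. Unadjusted, there were 4 of the 40, and 9.47% of all genes. Between DN4 and DN3a cells the change of Prim2 was higher in DN4 by 0.52 ± 0.11 SE (limma adjusted p = 0.02) and that of Pold3 by 0.37 ± 0.10 SE (limma adjusted p = 0.047), each in 4 of 4 sorts. These 2 genes are 5% of the 40, and 5.36% of all genes differed. Without sort 1, 2 or 4 the Prim2 call ended, and without any single sort the Pold3 call ended. With sorts 2 and 4 only 0 were called, where 5 of all 8820 genes were higher and 19 lower. With sorts 1 and 4 only 0 were called, where 1 of all genes was higher and 5 lower. Without the block for culture pairs 0 were called, where 53 of all genes were higher and 75 lower, with limma adjusted p = 0.28 for Prim2 and 0.53 for Pold3. For E2f2, which was called in DN3a and DN3b cells and not in DN4 cells, the difference between DN4 and DN3a was 0.36 ± 0.10 SE and did not pass (limma adjusted p = 0.057).

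**Figure D4:**
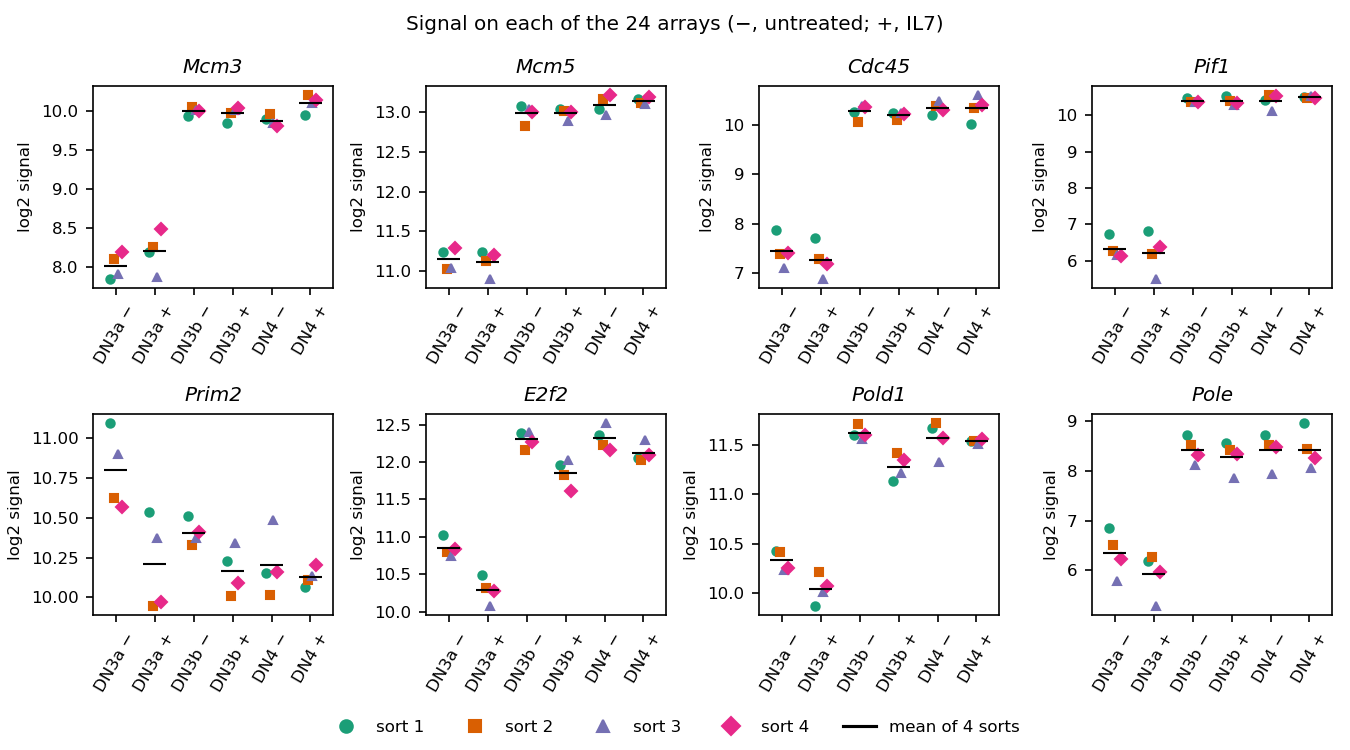
Log2 signal of 8 DNA replication genes on each of the 24 arrays, by subset without (−) and with (+) IL7; symbols are the 4 sorts and lines the mean of 4. Mcm3, Mcm5, Cdc45, Pif1 and Pole step up from DN3a to DN3b, Prim2 is highest in untreated DN3a cells, and E2f2 and Pold1 are lower with IL7 in DN3a and DN3b cells.

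In the 3 further lists, IL7 calls lay mainly in DN3a cells, where 9.44% of all genes rose and 11.5% fell. Of the 22 other replication genes, 1 rose and 6 fell in DN3a cells with a median change of 0.07. In DN3b cells 1 fell (Cdc7, a kinase gene, by 0.24 ± 0.07 SE), and 0 were called in DN4 cells. Atad5, which unloads the clamp, rose in DN3a cells by 0.49 ± 0.08 SE, and Clspn (-0.41), Chtf18 (-0.37) and Pold4 (-0.37) had the largest falls. The IL7 change of Orc5 was higher in DN4 than in DN3a cells by 0.40 ± 0.10 SE. Of the 13 regulators, Tfdp2, an E2F partner (-0.44 ± 0.09 SE), and Rbl1 (-0.37 ± 0.07) fell in DN3a cells, Ccna2 rose in DN3b cells (0.47 ± 0.13) and 0 were called in DN4 cells. Of the 6 chromatin genes, Rbbp7 rose in DN3a cells by 0.80 ± 0.11 SE and Uhrf1 (-0.45) and Dnmt1 (-0.35), which maintain DNA methylation, fell, and 0 were called in DN3b or DN4 cells. The Rbbp7 change differed from that in DN3b by -0.86 ± 0.16 SE and from that in DN4 cells by -0.77 ± 0.16 (limma adjusted p = 0.016 and 0.015), each lost in 6 of 13 alternative settings. The calls of Cdc7 and Ccna2 in DN3b cells were lost in 10 and 8 of 14 settings and that of Orc5 in 9 of 13.

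Among themselves, the genes varied most between sorts in DN3a cells. In untreated DN3a cells 34 of the 40 genes were above their group mean in sort 1 and 8 in sort 3, and in IL7-treated DN3a cells 31 and 7. Hba-a1 was high in both of these sorts, and S100a8 was at 4.52, 8.09, 9.55 and 6.25 in the untreated DN3a cultures of sorts 1 to 4; their part in this was not tested. The mean log2 signal of all genes on the untreated DN3a arrays of sorts 1 to 4 was 8.08, 8.05, 8.06 and 8.06. The share of all genes above their group mean was not computed. The median SD over the 4 untreated cultures was 0.18 in DN3a, 0.13 in DN3b and 0.16 in DN4 cells for the 40 genes, and 0.18, 0.19 and 0.19 for all genes. After removal of the group means, pairs of the 40 genes correlated across the 24 arrays with a median r of 0.17, against 0.003 for all genes, and Timeless and Mcm6 had the highest r of 0.91. Genes on 1 array share its RNA and its normalization, so that these correlations are a description.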

How the data were processed

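RNA from 24 cultures, with 250 ng of total RNA each, was hybridised to Illumina mouse Ref8v2 beadchips and read as a Cy3 signal, per the labels' protocols. The deposited table held an intensity and a detection p-value for each of 25697 probes on each array, exported from GenomeStudio 2011.1 per the submitters' processing notes. A second deposited table held log2 values, which the authors made by background subtraction, quantile normalization and log2 per the series' design text, and it served as an alternative. All columns were assigned, with 0 unused.

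Intensities were corrected and normalized with neqc of limma 3.58.1 in R 4.3.3 (background inferred from the detection p-values, offset 16, quantile, log2). The offset makes differences of dim probes smaller than they are in RNA. Median intensity per array ran from 93.3 to 119.8 and detected probes from 10940 to 11660. Of the probes, 23978 carried 1 gene symbol, 0 several and 1719 none. Probes with a detection p under 0.05 on at least 4 arrays were kept (12939, of which 12158 named), and the probe with the highest mean stood for each of 8820 genes.

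For IL7 effects, the 24 arrays entered 1 fit in which each of 12 culture pairs was a block, and subset differences came from the 12 untreated arrays with the sort as a block, with lmFit and eBayes, Benjamini-Hochberg adjustment over all genes and a threshold of 0.05. The labels give the sort number, so that pairs are of 1 sort. Deviations of paired cultures correlated at 0.24 or more in every pair, and 24 of 24 arrays correlated best with an array of their own sort. The design text mentions technical replicates without naming arrays, and the fits take the 4 sorts as separate samples. A probe that was below background on all arrays of a group gave a lower bound on the fold. It was computed against the lowest signal called above background on those arrays.

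The 48 genes, the roles and the 3 further lists were chosen with earlier results of these data known. Signals on every array are given for Mcm2 to Mcm7, Pcna, Cdc6, Ccne1, Ccne2, E2f1 and the 4 genes with the largest called change in each comparison, and up to 12 called genes per direction are named with their change. Other members, and the ends of ranges, were named after their values were seen. Promoter windows are those of RefSeq, build GRCm38.p6, matched by symbol. The fits were also run on simulated data with known changes. Its noise was drawn independently for each gene and array, without sort effects, so that it could not test the blocks.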

Additional observations from a re-analysis of the deposited data

Results flagged for a closer look

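Of 101 groups of 4 values tested for 1 value far from the other 3, 4 were marked, and chance marks about 1 in 20. The signal of Mcm2 in untreated DN3a cells was lowest in sort 2, at 9.67, against 10.02 to 10.06 in the other sorts. The signal of Pif1 in untreated DN3b cells was highest in sort 1, at 10.48, against 10.36 to 10.37. The difference of Ccne2 between untreated DN3b and DN3a cells was highest in sort 3, at 2.80, against 1.83 to 1.99. The change of Pold1 with IL7 in DN3a cells was lowest in sort 1, at -0.56, against -0.22 to -0.18.

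The test of the difference between DN4 and DN3a cells marked the IL7 changes of Prim2 (0.52) and Pold3 (0.37), as given above.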

How the results depend on the processing

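With the block for culture pairs replaced by no replicate block, IL7 calls among the 40 genes went from 8 to 3 in DN3a cells and from 2 to 0 for the difference between DN4 and DN3a, and the other counts stayed within 1.5 times. In DN3a cells the count was 4 with the arrays of that subset alone, 2 with sorts 2 and 4 only, 1 with sorts 1 and 4 only, and 4 to 5 without 1 sort. Of all 8820 genes, 647 were higher and 784 lower with that subset alone. Without 1 sort 577 to 643 were higher and 624 to 767 lower. In DN3b cells the count of 2 became 4 with the authors' deposited log2 values, 1 with the arrays of the subset alone, 0 with sorts 2 and 4 only, 0 with sorts 1 and 4 only, and 1 to 2 without 1 sort. Without sort 4 those 2 calls were 1 higher and 1 lower, in place of 0 higher and 2 lower, and Pold1 was not among them. Of all 8820 genes in DN3b cells, 474 were higher and 506 lower with the authors' values, and 289 and 206 with the subset alone. Without 1 sort 291 to 328 were higher and 216 to 309 lower, against 423 and 442 in the main fit. For the difference between DN4 and DN3a the count of 2 became 5 with the authors' values, 1 with no detection filter, 0 with either pair of sorts, 0 to 1 without 1 sort, and 0 with median scaling, an alternative chosen after seeing the data. Of all 8820 genes, 384 were higher and 357 lower with the authors' values, and 163 and 180 with median scaling. With no detection filter 187 and 206 of 16593 genes were, and without 1 sort 70 to 91 and 97 to 123 of 8820. The main fit called 473 in either direction. Counts between untreated subsets ran from 37 to 40 for DN3b against DN3a and from 38 to 39 for DN4 against DN3a, and were 0 for DN4 against DN3b in all 14 alternatives, as were IL7 calls in DN4 cells. Each called gene was looked up in each alternative setting. Counted per gene and setting, the call for DN3b against DN3a was kept 545 times and lost 13 times. The losses were those of Orc2 (6), Prim1 (4), Prim2 (2) and Rfc2 (1). For IL7 in DN3a cells the call was kept 70 times and lost 42 times, and 0 reversed. Why calls were lost was not tested. Settings with fewer sorts have fewer samples, and calls over all genes fell in them too. For IL7 in DN3a cells, 833 of all genes were higher and 1017 lower in the main fit, against 262 and 216 with sorts 1 and 4 only. Orc2 and Prim1 lie near background, which limits their values.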
